A study of Mus musculus with 9 samples.

Results

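The mouse epididymis was examined for 10 genes of peptide hormone systems. They were the ligand genes Npy, Ppy, Qrfp, Adm and Edn3 and the receptor or receptor-partner genes Calcrl, Ramp2, Ramp3, Ednrb and Ntsr2. The 10 are rows of a single-cell UMI matrix that lists 32195 genes, and 38 further genes of the same systems were set beside them. The genes were chosen from their UMI levels by segment, age and cell type in these same libraries, so their own levels and differences are given as a description without a test. Untreated C57BL/6 mice were used, at postnatal day 42 (P42, the age of the first wave of spermatozoa) and at postnatal day 56 (P56, adult). Each pool held 10 epididymides of 5 mice, cut into caput, corpus and cauda (the head, body and tail of the duct). There was 1 pool at P42 and there were 2 pools at P56, which gave 9 libraries, and all 3 segments of 1 pool were taken from the same mice. With 1 pool at P42, age and pool cannot be told apart. Red blood cells were lysed before the cells were loaded.

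Neuropeptide Y and pancreatic polypeptide, encoded by Npy and Ppy, are related peptides that act on a family of G protein-coupled receptors. Adrenomedullin, encoded by Adm, acts through a receptor made of the calcitonin receptor-like protein (Calcrl) and a receptor activity-modifying protein (Ramp2 or Ramp3), and is best known for its action on blood and lymphatic vessels. Endothelin 3, encoded by Edn3, acts on the endothelin B receptor (Ednrb), a receptor of vessels, smooth muscle and neural crest cells. Ntsr2 is a receptor of neurotensin, and Qrfp encodes an RF-amide peptide with a role in feeding. The epididymal duct is lined by principal cells, which secrete and absorb, by basal cells below them and by clear and narrow cells, which acidify the lumen.

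The coding sequences of Npy and Ppy are shown because the pair comes from a single gene family and was highest in different segments in these libraries, Ppy in the caput and Npy in the corpus. Both were read from the GENCODE vM21 annotation of GRCm38, without the stop codon. Npy lies on the plus strand of chromosome 6 and its coding exons span chr6:49823598-49829324. Ppy lies on the minus strand of chromosome 11 and its coding exons span chr11:102100175-102100711.
Npy coding sequence: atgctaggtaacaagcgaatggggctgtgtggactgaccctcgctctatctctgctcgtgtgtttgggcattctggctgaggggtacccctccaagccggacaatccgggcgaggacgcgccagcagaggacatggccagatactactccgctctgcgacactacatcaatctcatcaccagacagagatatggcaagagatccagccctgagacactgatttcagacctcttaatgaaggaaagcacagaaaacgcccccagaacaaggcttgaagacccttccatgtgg
Ppy coding sequence: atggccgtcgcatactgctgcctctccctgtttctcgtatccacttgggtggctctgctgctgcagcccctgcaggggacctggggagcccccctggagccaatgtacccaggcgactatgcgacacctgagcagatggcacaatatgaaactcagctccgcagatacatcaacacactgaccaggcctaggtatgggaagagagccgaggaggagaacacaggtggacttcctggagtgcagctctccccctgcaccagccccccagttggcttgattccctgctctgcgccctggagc
The alignment of the pair covered 280 bases, of which 60.4% were identical. The counts of the pair did not move together along the duct, as given below.

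The 250 bases before each of the same genes follow, from RefSeq on GRCm38.p6, since the pair differed in opposite directions between caput and corpus. Capitals mark a GC box in Npy and the core of a TATA box in Ppy. The Npy window is chr6:49822460-49822709 on the plus strand and the Ppy window is chr11:102101320-102101569 on the minus strand.
Npy promoter: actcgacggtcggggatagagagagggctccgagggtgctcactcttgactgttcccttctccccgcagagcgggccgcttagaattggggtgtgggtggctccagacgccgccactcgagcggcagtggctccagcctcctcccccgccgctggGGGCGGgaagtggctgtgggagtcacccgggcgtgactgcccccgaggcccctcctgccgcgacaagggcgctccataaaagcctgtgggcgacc
Ppy promoter: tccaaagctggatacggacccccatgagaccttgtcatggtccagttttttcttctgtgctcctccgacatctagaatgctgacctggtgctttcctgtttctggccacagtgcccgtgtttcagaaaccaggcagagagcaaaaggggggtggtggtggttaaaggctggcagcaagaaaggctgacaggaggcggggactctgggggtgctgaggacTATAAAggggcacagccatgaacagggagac
A promoter was listed for 9 of the 10 genes (not for Ramp2), and 6 motifs were searched on both strands. TATAAA, the TATA box core, was found in Ppy alone among the 9, with its first base at position -31 from the start, and in 12.4% of 32851 mouse promoters of the same length. GGGCGG, the GC box, was found in Npy, Adm, Calcrl and Ramp3 and in 32.7% of all promoters. Ntsr2 held ACGTG, the core of a hypoxia response element, which occurred in 16.6% of all promoters, within CACGTG, an E-box held by 6.02% of them. Ednrb held AGAACA, an androgen receptor half-site (16.1% of all promoters), and TGACG, a cAMP response half-site (17.8%). Qrfp and Edn3 held none of the 6. A match is a match of letters only.

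The libraries held 23114756 to 50655384 UMIs (unique molecular identifiers, each taken as 1 captured RNA molecule). After filters on detected genes, UMIs and mitochondrial share, 42087 cells of 44869 barcodes were kept, 4209 to 4910 a library, with a median of 3088.5 to 7644 UMIs a cell. Levels are given as UMIs per 1000000 UMIs of the same cells (CPM), with the 5 globin genes left out of the total. There were 381 barcodes whose sequence occurred in more than 1 library. Cells were assigned to types by a gate on marker genes that contain none of the 10 genes. The gate placed 26500 cells (63.0%), and 13886 kept cells lay within 1 marker of its limit. The defining markers stood far apart in most types, with a median ratio over other cells of 18.9 to 733, but only 6 of the 19 principal cell markers were at least 2 times higher in principal cells (median ratio 1.83). Of the gated cells, 82.0% of principal, 64.1% of macrophage or monocyte, 56.8% of myoid and 20.5% of erythroid cells lay in a cluster of the same class. The P42 libraries, and the P42 cauda above all, held more RNA of fibroblast markers. The 7 fibroblast markers together reached 42497 CPM in the P42 cauda, 7696 CPM in the P42 corpus and 2219 CPM in the P42 caput, and 412 to 1498 CPM in the 6 P56 libraries. The 8 myoid markers in the caput summed to 1663 CPM at P42 and to 1828 and 1655 CPM at P56. In the corpus they summed to 189 CPM at P42 and to 88.4 and 63.1 CPM at P56, and in the cauda to 522 CPM and to 187 and 127 CPM. Of the 8, Actg2 was just 1.79 times higher in gated myoid cells than in other gated cells. The P42 cauda also held just 126 gated principal cells, against 614 to 2401 in the other libraries. In sums over all cells, fewer cells of a type and less RNA per cell cannot be told apart.

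Npy was the most abundant of the 10 genes in UMIs, with 309289 in all kept cells, and it was a gene of the corpus and cauda. Over all kept cells of a library it stood at 7.81 CPM at P42 and at 12.7 and 16.4 CPM in the P56 pools in the caput. In the corpus it stood at 1174 CPM at P42 and at 2635 and 3185 CPM at P56. In the cauda it stood at 307 CPM at P42 and at 1591 and 1733 CPM at P56. The 3 caput libraries were thus far below the 6 others without overlap, and the P42 library was the lowest in each segment. The fitted difference of corpus against caput was 7.64 ± 0.51 on the log2 scale (edgeR, SE), and that of cauda against corpus was -1.01 ± 0.39. Summed over pools, corpus cells held 194 times the Npy level of caput cells (95% counting interval 183 to 205).

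Ppy was a gene of the caput. It reached 19.4 CPM at P42 and 20.8 and 13.2 CPM at P56 in the caput. In the corpus it was at 0.101, 0.314 and 0.0756 CPM, which rest on 2, 8 and 2 UMIs, and in the cauda a single UMI was counted over all 3 libraries. Caput and corpus differed 105-fold in summed level (60.05 to 204), and no cauda principal cell of 3703 held a Ppy UMI, which allows a share of cells with a UMI of up to 0.0810% (a floor of 3 cells that covers counting error only and does not limit the share of cells that express the gene). Ppy was found in 7.37% of 4504 caput principal cells.

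Ntsr2, the low-affinity neurotensin receptor, was also a caput gene. Its levels in the caput were 101 CPM at P42 and 240.0 and 262 CPM at P56. In the corpus they were 20.3 CPM at P42 and 60.9 and 2.95 CPM at P56. In the cauda they were 0.791, 0.587 and 0.318 CPM. The 3 segments did not overlap, but the 2 P56 corpus pools lay far apart, on either side of the P42 pool. Ramp3, by contrast, was a gene of the corpus. It stood at 22.6, 36.0 and 40.0 CPM in the caput, at 208, 272 and 243 CPM in the corpus and at 8.81, 25.0 and 19.1 CPM in the cauda, in the order P42, first P56 pool and second P56 pool. Corpus exceeded cauda 12.6-fold in summed level (12.1 to 13.3).

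Qrfp was highest in the caput, with 18.7, 11.9 and 21.4 CPM in the caput, 8.07, 6.09 and 2.95 CPM in the corpus and 2.11, 3.32 and 2.77 CPM in the cauda, in the same order of pools. The caput libraries lay above all others, while corpus and cauda overlapped. Adm was highest in the cauda. Its 3 cauda libraries, at 53.2, 50.6 and 47.0 CPM, lay above the 6 others, which ranged from 11.5 to 32.5 CPM. Edn3 differed less between segments, at 41.3 to 60.6 CPM in the caput, 48.9 to 96.1 CPM in the corpus and 69.1 to 76.7 CPM in the cauda. The corpus overlapped both other segments, while every cauda library lay above every caput library.

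The remaining 3 receptor genes were split by pool rather than by segment. Calcrl stood at 24.8, 25.3 and 55.5 CPM in the P42 caput, corpus and cauda, and at 1.91 to 5.73 CPM in the 6 P56 libraries. Ramp2 stood at 53.5, 32.8 and 91.0 CPM at P42 and at 2.96 to 8.49 CPM at P56. Ednrb stood at 25.2, 30.7 and 109.8 CPM at P42 and at 1.69 to 6.67 CPM at P56. In each of the 3 genes, every P42 library was above every P56 library.

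Across segments, 6 of the 10 genes met the call rule of the whole-tissue fit (adjusted p under 0.05 and a log2 difference of at least 1 between the highest and lowest segment), against 24.8% of 18538 genes tested, and the 10 were chosen for such patterns. In gated principal cells 6 of 10 met it (38.6% of all genes tested there), in basal cells 5 of the 6 that could be tested (13.8%), in endothelial cells 3 of 8 (9.01%) and in fibroblasts 4 of 7 (7.31%). The endothelial calls were Npy, Ramp3 and Ntsr2, and the fibroblast calls were the same genes and Adm. Npy, Ramp3 and Ntsr2 were found across types, as given below, and the source of their UMIs there was not tested. Calcrl, Ramp2 and Ednrb did not meet the rule in endothelial cells. The genes that could not be tested had too few UMIs in that type.

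**Figure D1:**
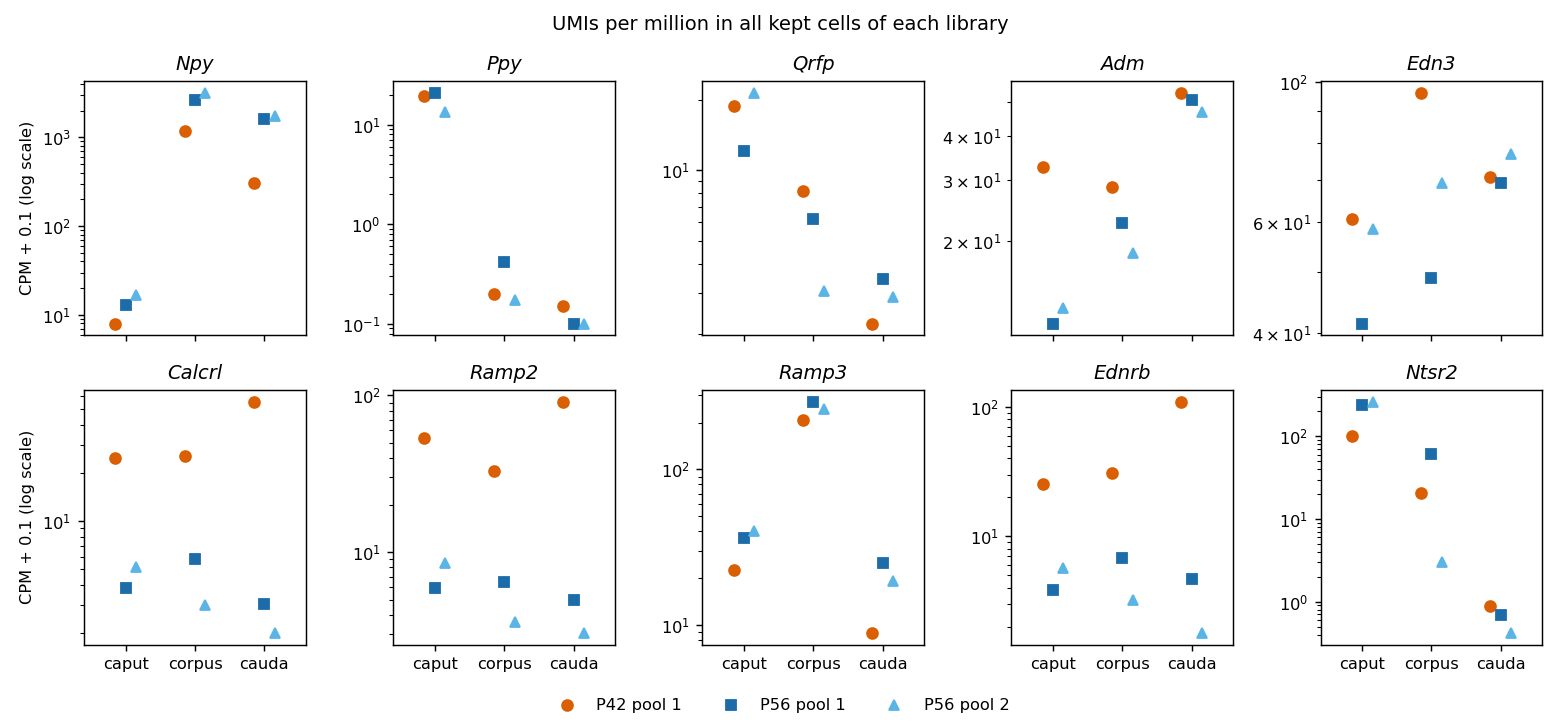
Level of the 10 genes in the 9 libraries, as CPM plus 0.1 on a log axis that differs between panels, over all kept cells of each segment. Each point is 1 library. Npy is at 307 CPM or more in all corpus and cauda libraries and at 16.4 CPM or less in the caput, Ppy and Ntsr2 are highest in the caput, Ramp3 is highest in the corpus, and Calcrl, Ramp2 and Ednrb are highest in the 3 P42 libraries.

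Among gated types, the genes differed in how far a single type stood out. Adm was highest in basal cells among the gated types in 9 of 9 libraries. In basal cells it stood at 155, 117 and 92.9 CPM in the caput, at 119, 255 and 228 CPM in the corpus and at 139.5, 212 and 220.0 CPM in the cauda, in the order P42, first P56 pool and second P56 pool. Its mean in basal cells was 171 ± 58.6 CPM (SD, n = 9 libraries), the next type was endothelial cells at 38.2 ± 27.2 CPM, and the ranges of the 2 types did not overlap. Adm UMIs were found in 53.1% of 1605 basal cells and in 4.21% of 903 erythroid-gated cells, a type that should lack the gene. These reference cells were a mixed set. Of all 909 erythroid-gated cells, 42.9% lay in principal clusters, 26.1% in clusters of no class and 20.5% in the erythroid cluster, so their shares are not those of erythroid cells alone. In the 186 cells that were erythroid by gate and by cluster, a choice made after seeing the data, Adm was found in 3.23%, at a median of 1166 UMIs a cell without globins. The median depth with globins was 6521 UMIs in basal cells and 3593 UMIs in erythroid-gated cells, and 2232 UMIs in the latter without globins. With every cell thinned to 1000 UMIs the shares were 15.0% and 1.93%.

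Qrfp shared the basal cells with Adm, but only in the caput did it reach a high level there. Caput basal cells held 116, 138 and 144 CPM, corpus basal cells 29.7, 2.503 and 14.0 CPM and cauda basal cells 15.5, 12.8 and 13.5 CPM, in the same order of pools. The 3 caput libraries lay above the 6 others without overlap. A Qrfp UMI was seen in 46.2% of 586 caput basal cells, in 8.90% of 292 corpus basal cells and in 8.53% of 727 cauda basal cells. Thinned to 1000 UMIs, the share was 9.87% to 13.5% in the caput libraries and 0.112% to 2.81% in the 6 others. Adm differed less between segments in the same cells, with a UMI in 47.4%, 46.6% and 60.4% of them. The fitted log2 difference of cauda against caput basal cells was -2.94 ± 0.31 (SE) for Qrfp and 0.87 ± 0.31 for Adm. In 53.9% of the caput basal cells with Qrfp, Adm was found as well. In clusters built without the 10 genes, Qrfp was highest in the caput basal cluster (cluster 18, led by Krt5 and by Qrfp itself), at 158 CPM in 870 cells, which held 38.6% of all Qrfp UMIs. A second source was a corpus principal cluster (cluster 19, led by Spint4), at 40.4 CPM.

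Edn3 was a clear and narrow cell gene in 9 of 9 libraries. Its levels there were 269.5 CPM at P42 and 264 and 222 CPM at P56 in the caput. In the corpus they were 539.9 CPM at P42 and 322 and 382 CPM at P56, and in the cauda 732 CPM at P42 and 408 and 498 CPM at P56. In the gated cells every caput library was below every corpus and cauda library, but this order depended on how the cells were chosen. With cluster classes in place of the gate, an alternative chosen after seeing the data, the P42 levels were 282 CPM in the caput, 467 CPM in the corpus and 677 CPM in the cauda. In the P56 pools the order turned, with 351 and 391 CPM in the caput, 258 and 303 CPM in the corpus and 295 and 308 CPM in the cauda. The segments lay in different clusters of this class, caput cells mostly in cluster 13 and corpus and cauda cells mostly in clusters 3, 14 and 29. Over 9 libraries clear and narrow cells averaged 404 ± 163 CPM, against 20.2 ± 7.70 CPM in principal cells and 56.1 ± 27.5 CPM in myoid cells, the next type. Edn3 was found in 72.4% of 3049 clear and narrow cells and in 9.97% of erythroid-gated cells, or in 29.0% and 4.09% after thinning. Iapp, the gene of amylin and a relative of the calcitonin peptides, was seen in the same type but in fewer cells, with a UMI in 7.48% of caput, 2.08% of corpus and 0.910% of cauda clear and narrow cells.

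Calcrl and Ramp2, which make a receptor for adrenomedullin, were highest in endothelial cells. Calcrl stood there at 108 ± 53.0 CPM (n = 9) and in fibroblasts at 55.9 ± 41.8 CPM, and these ranges overlapped. Ramp2 stood at 235 ± 134 CPM in endothelial cells and at 66.4 ± 48.1 CPM in fibroblasts. In principal cells they were at 1.62 ± 1.11 and 3.56 ± 3.95 CPM. In erythroid-gated cells a Calcrl UMI was found in 2.66% and a Ramp2 UMI in 4.21%, against 44.3% and 65.0% of endothelial cells. Of the 317 endothelial cells with a Calcrl UMI, 79.2% also held Ramp2, against 65.0% of all 715 endothelial cells. Among fibroblasts with Calcrl, 46.4% held Ramp2, against 32.8% of all. Cells were not matched for depth in these shares. Ramp3, the other partner of Calcrl in an adrenomedullin receptor, was found in 20.4% of endothelial cells and in 20.2% of those with Calcrl.

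Ednrb had 2 main places, endothelial cells and macrophages. In endothelial cells it averaged 97.3 ± 53.6 CPM and was found in all 9 libraries. Its share of cells with a UMI was 31.3% there, 20.4% in macrophages and 1.99% in erythroid-gated cells. In macrophages and monocytes it differed by segment. Caput macrophages held 2.89, 0 and 3.79 CPM, where the 0 stands for 201 cells of the first P56 pool and allows a share of cells with a UMI of up to 1.49%. Corpus macrophages held 179, 95.5 and 38.2 CPM, and cauda macrophages 387, 33.8 and 9.30 CPM, in the order P42, first and second P56 pool. All 6 corpus and cauda values of the gated cells exceeded the 3 caput values, and within each segment of the distal duct the P42 library was the highest. With cluster classes in place of the gate the P42 caput (13.4 CPM) lay above the second P56 cauda pool (8.10 CPM), so the segments then overlapped. A macrophage cluster led by Ccl8, Pf4 and F13a1 (cluster 4, with 14.1% of its cells from the caput) held 52.6% of all Ednrb UMIs, and 26.6% without the P42 cauda library, in which its level was 464 CPM. The highest cluster was a set of 95 cells led by Mmrn1, Lyve1 and Prox1, markers of lymphatic endothelium, where Ednrb reached 341 CPM. The same cluster held Nts, the gene of neurotensin, at 544 CPM and 72.4% of all Nts UMIs (330 CPM and 71.5% without the P42 caput library). It also held the highest Ramp2 of any cluster, at 433 CPM, and 70.5% of its cells came from P42. Its Adm level was 224 CPM, the highest of any cluster, beside 161, 158 and 135 CPM in the basal clusters 2, 37 and 18. Without the P42 caput library it was 126 CPM, beside 163, 158 and 116 CPM in those basal clusters. In the order of mean levels over types, the top type stood apart from the next without overlap for Adm and Edn3 alone among the 10 genes. For Ramp2 the top 2 differed by more than the larger SD but overlapped, and for the 7 others the gap was within the larger SD.

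**Figure D2:**
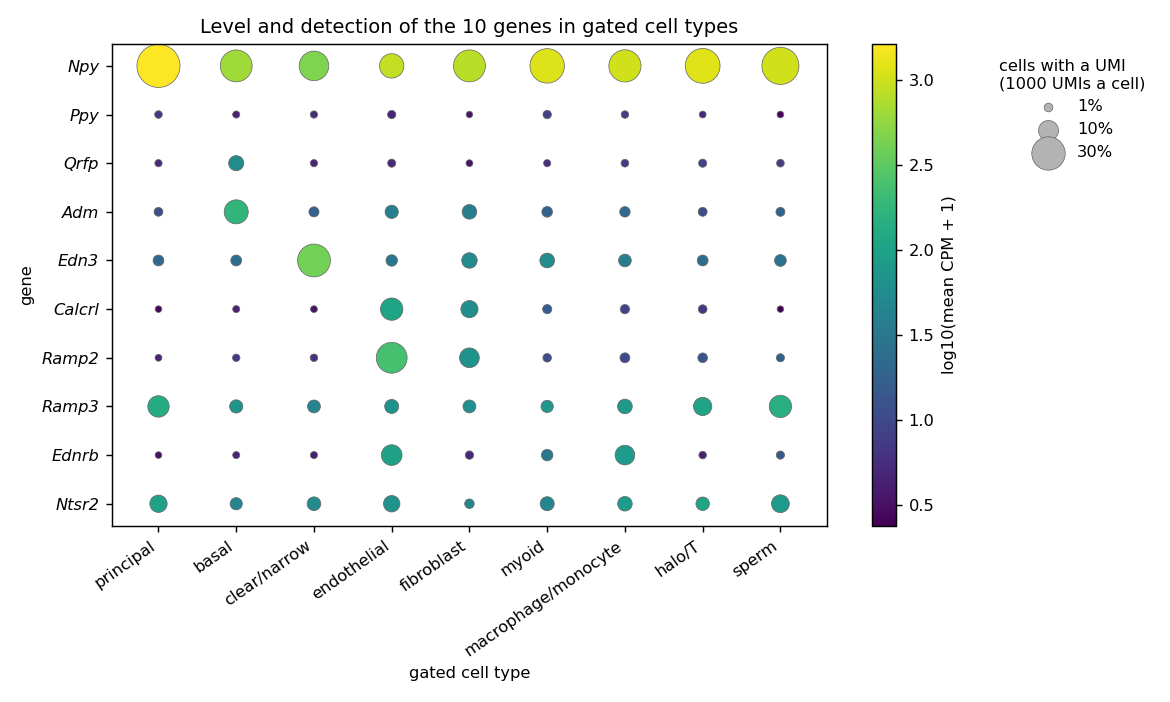
Mean level of the 10 genes in 9 gated cell types. Colour gives log10 of the mean CPM over libraries plus 1, and the area of a dot grows with the share of cells with a UMI after every cell was thinned to 1000 UMIs. Adm and Qrfp stand out in basal cells, Edn3 in clear and narrow cells and Calcrl and Ramp2 in endothelial cells, Ednrb is alike in endothelial cells and macrophages, and Npy, Ramp3 and Ntsr2 have a similar colour across types.

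Npy, Ramp3, Ntsr2 and Ppy behaved differently from these. In corpus principal cells Npy stood at 1991 CPM at P42 and at 3127 and 3810.1 CPM at P56, yet the median of the other types in the same libraries was 700 CPM, 1853 CPM and 2433 CPM. Erythroid-gated cells of the corpus held 1357, 1989 and 2810.0 CPM. Principal cells were the highest type for Npy in all 6 corpus and cauda libraries, by 1.31 to 7.07 times the median of the others, and in no caput library. The ratio of a pair of genes was also set side by side across types. The number of Npy UMIs per Ramp3 UMI in the P42 corpus was 5.34 in principal cells and 4.38 to 6.47 in the 8 other types. It was 9.72 against 7.05 to 15.5 in the first P56 corpus and 12.6 against 9 to 19.1 in the second. In all 3 corpus libraries the principal ratio was within the range of the other types. The ratio of Ntsr2 to Ppy in the caput was higher in principal cells (7.76, 16.8 and 28.2) than in every other type that could be scored (1.86 to 20.1). For Npy, a UMI was found in 64.6% of principal and 52.3% of erythroid-gated cells (50.7% and 45.1% after thinning). For Ramp3 the shares were 37.3% and 23.5% (11.7% and 11.4%), for Ntsr2 16.7% and 13.6% (7.27% and 6.94%) and for Ppy 2.61% and 1.99% (0.538% and 0.531%). These shares pool the segments, whose mix differed. The corpus gave 4878 of 13085 principal cells and 478 of 909 erythroid-gated cells. Summed over corpus libraries, Npy was at 3279 CPM in principal and 1975 CPM in erythroid-gated cells, and Ramp3 at 320 and 232 CPM. Over the caput libraries Ntsr2 was at 288 and 245 CPM and Ppy at 16.4 and 22.5 CPM. In the 186 cells that were erythroid by gate and by cluster, which were shallower, the shares were 38.7% for Npy, 10.8% for Ramp3, 4.84% for Ntsr2 and 0.538% for Ppy. The corpus part of them, 101 cells, held Npy at 1127 CPM. The source of the UMIs of these 4 genes in other types was not tested.

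Clusters built without the 10 genes placed the highest Ntsr2 and Ppy levels in a few clusters and spread Npy and Ramp3 over several. Npy was highest in a corpus principal cluster (cluster 0, led by Defb22), at 3909 CPM and in 99.5% of its 3533 cells, and in a cauda principal cluster (cluster 7, led by Ptgds), at 3657 CPM and in 98.9% of 1914 cells. Ramp3 was highest in the corpus cluster led by Spint4, at 424 CPM, and stood at 301 CPM in cluster 0. Ntsr2 was concentrated in a caput cluster (cluster 8) of 1864 cells, where it reached 1061 CPM, was found in 90.1% of cells and gave 63.4% of all its UMIs. Ntsr2 had a second site in a corpus cluster led by Spag11a and Defb21, at 623 CPM. That cluster made up 7.45% of the cells of the first P56 corpus, 0.802% of the second and 2.41% of the P42 corpus. Within it Ntsr2 was at 751, 301 and 354 CPM in the same libraries. Both had the same order as the whole-tissue level of Ntsr2 there, so cell share and level cannot be told apart. Ppy was highest in another caput cluster (cluster 21, led by Lypd8 and Defb45), at 130 CPM and in 41.3% of 803 cells, followed by cluster 30 at 82.1 CPM, all of whose cells came from P42. Ntsr2 at 151 CPM in cluster 21 and Ppy at 12.9 CPM in cluster 8 place the peaks of the 2 caput genes in different clusters. No test was made between clusters.

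**Figure D3:**
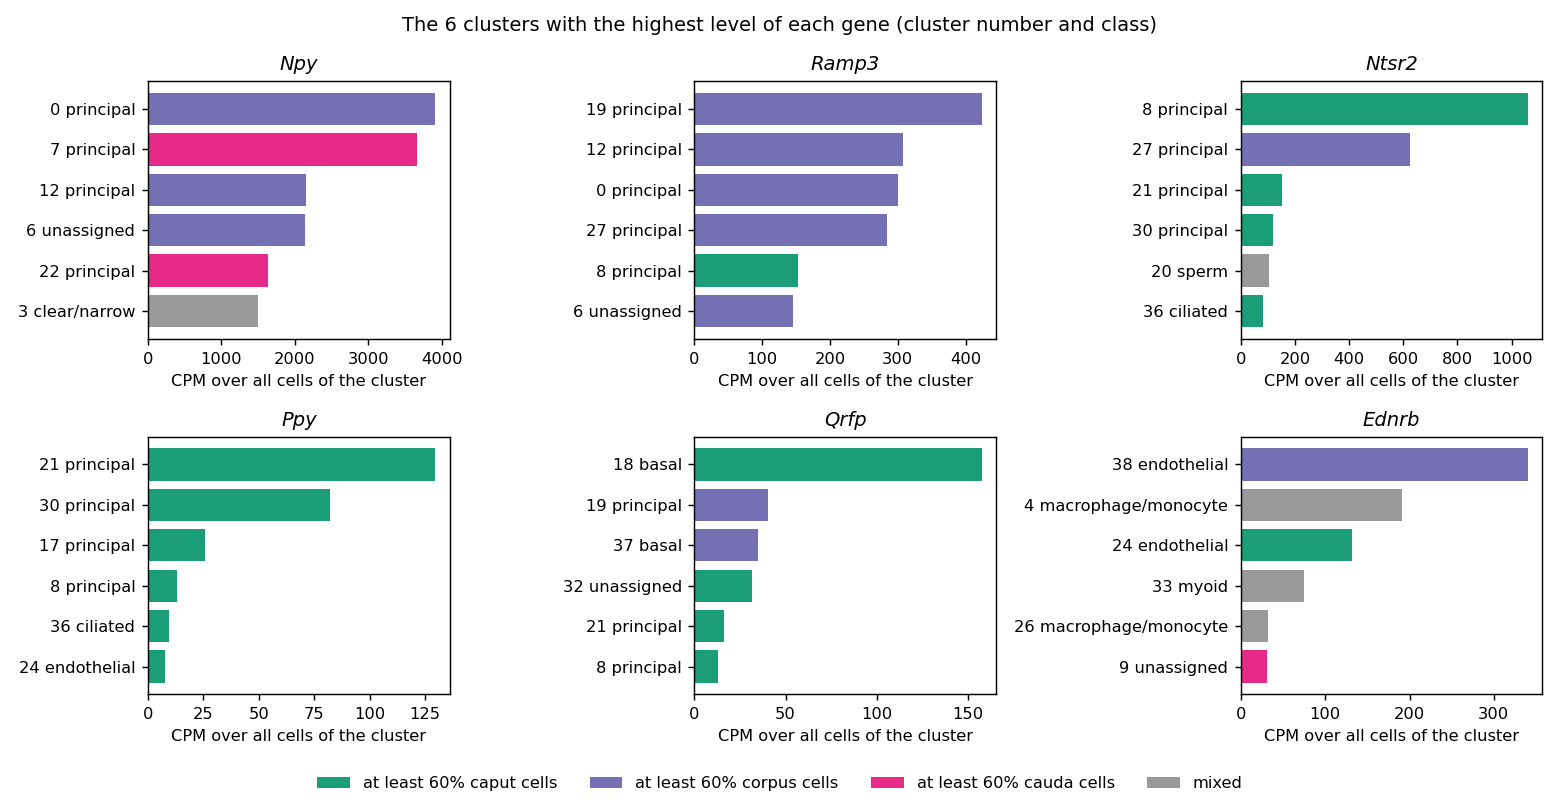
The 6 clusters with the highest level of Npy, Ramp3, Ntsr2, Ppy, Qrfp and Ednrb, as bars of CPM over all cells of the cluster, from 0. Colours show the segment that gave at least 60% of a cluster's cells. Ntsr2 peaks in caput cluster 8 at 1061 CPM and corpus cluster 27 at 623 CPM, Ppy in caput cluster 21 at 130 CPM, and Qrfp in the caput basal cluster 18 at 158 CPM.

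By pattern over 76 sums of a library and a gated type, which share libraries and depth, the genes most like Npy were Defb28, Serpina16 and Odam (Pearson r of 0.97, 0.97 and 0.97 on log2(CPM + 1)). The genes most like Ntsr2 were Muc15, Defb15 and Agr2 (0.95, 0.95 and 0.94). Ppy was most like 2810459M11Rik, Gm5095 and Ptpn5 (0.96, 0.95 and 0.95), and Ramp3 most like Gm34593, Wfdc13 and Gm34646 (0.90, 0.87 and 0.87). Calcrl was most like Lysmd2, Heg1 and Palm (0.89, 0.88 and 0.88), and Ramp2 most like Lama4, Thbd and Cdh5 (0.86, 0.86 and 0.85), of which Cdh5 belongs to the gate. Edn3 had 2 genes with r of at least 0.8, Asl and Clcn5 (0.83 and 0.82). Qrfp, Adm and Ednrb had none. The comparison covered 13096 genes and carries no p.

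Between the 2 ages, 5 of the 10 genes met the call rule of the fit of P56 against P42 with a mean for each segment, against 16.7% of 18538 genes tested. Of all genes tested, 4.27% were called higher and 12.5% lower at P56. Of the calls, 25.5% were higher at P56, and 3.38% when libraries were scaled by their totals alone, a scaling that moved the median of all genes to -0.56 on the log2 scale. The 3 segments of a pool stand in for replicates here, so the p-values are too small for a statement about mice. Npy and Ramp3 were higher, with fitted log2 differences of 2.07 ± 0.35 and 1.34 ± 0.22 (SE), and Calcrl, Ramp2 and Ednrb lower, with -2.67 ± 0.36, -2.86 ± 0.33 and -2.93 ± 0.52. These signs held under each scaling tried, but over the alternatives the Ramp3 difference went down to 0.76, under the call limit of 1. Within principal cells Ramp3 was higher in both P56 pools in the caput and cauda. In the corpus principal cells it was lower, at 373 CPM at P42 and 322 and 303 CPM at P56. The fitted values of Ntsr2, Ppy, Qrfp, Edn3 and Adm were 1.17 ± 0.83, 0.33 ± 0.51, 0.34 ± 0.32, 0.25 ± 0.20 and -0.14 ± 0.27, and the sign of 4 of these 5 depended on the setting. With scaling by totals alone Qrfp, Edn3 and Ppy turned to -0.21, -0.33 and -0.12. With a separate mean per segment at each age Ppy was at -0.54, and without the first P56 pool Ntsr2 was at -0.29. Without the P42 cauda Qrfp and Edn3 were at -0.04 and -0.02. The fibroblast markers given above were higher at P42 as well. The 13 endothelial markers summed to 560, 166 and 115 CPM in the P42 caput, corpus and cauda and to 18.7 to 119 CPM in the P56 libraries, and the 10 macrophage markers to 564, 1465 and 4164 CPM against 135 to 431 CPM. The part of these cells in the whole-tissue difference was not tested. Within endothelial cells, Calcrl was 178, 108 and 215 CPM in the P42 caput, corpus and cauda and 63.0 to 99.3 CPM in the 6 P56 libraries. Ramp2 was 394, 356 and 444 CPM against 60.6 to 248 CPM. Both genes were thus higher at P42 in every segment also within the gated endothelial cells, of which the P42 cauda held just 18. For Calcrl in the corpus the counting intervals of P42 and the first P56 pool overlapped. The same direction was seen for both genes in every segment in principal, basal, clear and narrow, fibroblast, myoid and macrophage cells. It was thus not confined to the types with the highest levels. Ednrb in endothelial cells was above both P56 pools in the P42 caput and cauda but not in the corpus, where it was 134 CPM at P42 and 157 and 36.0 CPM at P56. The gated endothelial cells mix cluster 24 with the lymphatic cluster 38, of which 49.9% and 70.5% of cells came from P42. Within cluster 24 Ednrb was above both P56 pools in the P42 caput alone, and in the cauda it was 75.4 CPM in 15 cells at P42 and 83.7 and 27.7 CPM at P56. Calcrl and Ramp2 were above both P56 pools in all 3 segments within cluster 24 too. In fibroblasts Calcrl was 75.5, 116 and 102 CPM against 8.84 to 93.4 CPM. The fibroblasts of the 2 ages were split differently between clusters, with 1131 cells of the P42 cauda in cluster 11 and 195 in cluster 1, against 41 and 485 of the first P56 cauda. Within cluster 1 Calcrl was 63.4, 148 and 70.4 CPM in the P42 caput, corpus and cauda and 9.61 to 93.9 CPM in the P56 libraries, where the P42 library was the highest in each segment. Within principal cells Npy was higher in both P56 pools in every segment, at 12.4 against 14.4 and 18.7 CPM in the caput, 1991 against 3127 and 3810.1 CPM in the corpus and 1349 against 2178 and 2178 CPM in the cauda. Npy was likewise higher in both P56 pools in every segment in basal, clear and narrow, endothelial, fibroblast and macrophage cells. The principal cells of the distal duct were also split between clusters by age. Corpus cluster 12 (Npy at 2155 CPM) took 99.9% of its cells from P42, and clusters 0 and 7 took 3.62% and 1.41%. Within cluster 0, Npy was 1784 CPM in 124 cells of the P42 corpus and 3750.4 and 4187 CPM in the P56 corpus pools. The differences in the gated cells were between 1 pool and 2 pools and were not tested.

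**Figure D4:**
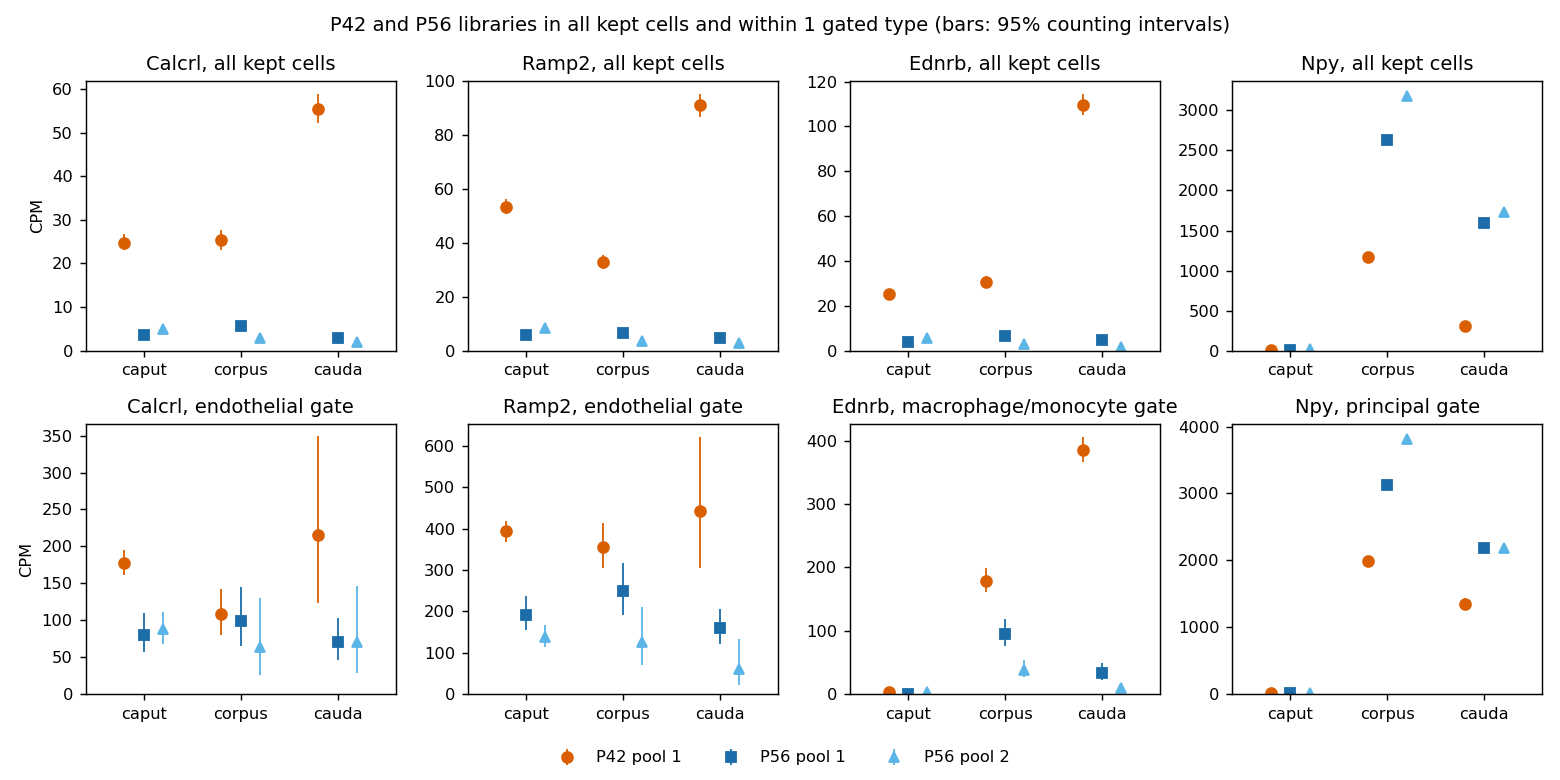
Calcrl, Ramp2, Ednrb and Npy in CPM at P42 and P56, over all kept cells (top) and within 1 gated type (bottom). Bars are 95% Poisson counting intervals of 1 library and do not cover differences between mice. Calcrl and Ramp2 in gated endothelial cells stay higher in the P42 library of each segment, with P42 cauda resting on 18 cells, and Npy is higher in the P56 libraries also within principal cells, by a smaller ratio in the cauda.

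The rest of the same peptide systems was described by a list of 41 genes, 38 with a row in the matrix. Npy5r, Qrfpr and Npff were not analysed here. Over the whole tissue 28 could be tested for a segment difference, and 11 were called (edgeR, quasi-likelihood F test, p adjusted by Benjamini-Hochberg), 39.3% beside 24.8% of all genes. The median fitted difference between highest and lowest segment was 1.35 on the log2 scale, beside 0.80 over all genes. The count was 19 without the P42 pool and 3 and 5 without the first and second P56 pool, and Npy2r and Ntsr1 were called in all 9 alternatives run. Of the receptors of the neuropeptide Y family that could be tested, Npy2r and Npy6r were highest in the corpus and Npy1r in the cauda. Npy2r was at 4.57, 6.01 and 5.93 CPM there and at 0.0572 to 0.559 CPM in the 6 other libraries (adjusted p = 0.000362). Npy6r was higher in the corpus than in the cauda by 3.98 (adjusted p = 0.00291), a call lost without either P56 pool, while Npy1r, a vascular and neural receptor, was higher in the cauda than in the corpus by 1.28 (adjusted p = 0.015). The Npy1r call was lost in 3 of 9 alternatives, without the replicate block and without either P56 pool. Among the gated types its level was highest in myoid cells, at 55.3 ± 73.2 CPM (n = 9). This was 3.90 above the mean of the other types on the log2 scale (adjusted p = 8.06e-19). The gated myoid cells included cells of cluster 31 (led by Cnn1, Myh11 and Tpm2) and of cluster 33 (led by Mustn1, Acta2 and Rergl). The level of the gated type therefore does not place Npy1r in the muscle of the duct wall. Pyy and Npy4r, the gene of peptide YY and the receptor for pancreatic polypeptide, gave 18 and 3 UMIs in all kept cells.

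Ntsr1, the high-affinity neurotensin receptor, was counted almost wholly in the caput. It held 35 UMIs (1.19 CPM) at P42, 322 (10.2 CPM) and 412 (11.8 CPM) in the P56 caput pools, 0 in the 3 corpus libraries and 1 in the 3 cauda libraries. The caput level was at least 192-fold higher than the corpus level, taking a floor of 3 UMIs over the corpus (adjusted p = 0.000783 for the segments). It peaked in other clusters than Ntsr2, with 23.1 CPM in the caput principal cluster 16. In the age fit it was higher at P56 by 3.53 (adjusted p = 0.00826), whereas Nts was lower by a fitted -2.87 (adjusted p = 0.0282) and Ednra by -2.34 (adjusted p = 0.00478). The Ntsr1 call was also lost with a separate mean per segment at each age. The 5 lymphatic markers summed to 26.8, 121 and 179 CPM in the P42 caput, corpus and cauda and to 2.06 to 21.1 CPM at P56, and their part in the Nts difference was not tested. Of the 28 genes tested there, 2 rose and 6 fell at P56, beside the 4.27% of all genes called higher and 12.5% called lower, a split that moved with the scaling as given above. Ackr3, a scavenger receptor that takes up adrenomedullin, was among those that fell (-1.66, adjusted p = 0.00474), with Npy1r, Pcsk5 and Pam, and Ramp1 rose by 1.18 (adjusted p = 0.0482), a call lost in 4 of 8 alternatives, among them scaling by totals alone and leaving out the P42 cauda.

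Ramp1, the partner that with Calcrl makes the receptor for calcitonin gene-related peptide, was higher in the cauda than in the caput by 4.48 (adjusted p = 0.00185, lost without the first P56 pool), and by 6.94 within principal cells (adjusted p = 1.29e-08). It was also called in basal cells, endothelial cells and fibroblasts. Like Npy it was found across types, at 632 ± 486 CPM in principal cells and 440 ± 390 CPM in erythroid-gated cells. Edn1, the endothelin of vessels, was highest in endothelial cells (108 ± 64.9 CPM, adjusted p = 4.21e-23), as was Ece1, the enzyme that releases active endothelins (531 ± 313 CPM, adjusted p = 4.17e-38). In clear and narrow cells Iapp and Scg5, a chaperone of prohormone convertase 2, were higher than the mean of the other types by 4.14 (adjusted p = 1.54e-25) and 3.77 (adjusted p = 1.54e-34). The p-values between types again count the segments of a pool as separate samples, so they are too small for a statement about mice. In all, 13 of 18 listed genes tested were called between types, beside 40.4% of all genes. In principal cells 20 of 26 differed by segment (38.6% of all genes), in basal cells 6 of 14 (13.8%), in endothelial cells 4 of 13 (9.01% of all genes, and 1 listed gene without the first P56 pool) and in fibroblasts 2 of 17, beside 7.31% of all genes (8 listed genes without the P42 pool or its cauda library, and 1 and 0 without the first and second P56 pool). The 10 genes themselves met the rule between types in 10 of 10 cases, from which nothing is read. The age calls rest on both P56 pools, since with either left out edgeR called 0 of all genes tested, while 3848 and 4523 genes had an unadjusted p under 0.05.

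The 10 genes lie on 6 chromosomes of GRCm38 (positions from the GENCODE vM21 annotation). Qrfp (chr2:31806166-31810580, minus strand), Calcrl (chr2:84330626-84425411, minus) and Edn3 (chr2:174760619-174784042, plus) share chromosome 2. Ramp3 (chr11:6658521-6677475, plus), Ramp2 (chr11:101246028-101259546, plus) and Ppy (chr11:102099930-102101319, minus) share chromosome 11. Npy lies at chr6:49822710-49829507 (plus), Adm at chr7:110627661-110629820 (plus), Ntsr2 at chr12:16653382-16660227 (plus) and Ednrb at chr14:103814625-103844402 (minus). Of these, 3 overlap another annotated gene: Adm the antisense gene Gm28863, Ramp3 the pseudogene Gm11978 on the opposite strand and Ramp2 the gene Vps25 on its own strand. Whether counting used the strand is not given in the sources used here, so reads shared with these partners cannot be told apart.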

How the data were processed

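Single cells of the caput, corpus and cauda of pooled mouse epididymides were profiled with the Singleron GEXSCOPE kit, per the labels. The authors trimmed reads with fastp, aligned them with STAR 2.7.3a (per the submitters' processing notes) to GRCm38.p6, assigned them to exons with featureCounts (a later GENCODE release than the vM21 used here for positions) and collapsed molecular identifiers with UMI-tools, and deposited raw UMI counts of 32195 genes in 44869 barcodes, without cell type labels. The depth was 23114756 to 50655384 UMIs a library. Whether counting used the strand is not given in the sources used here.

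Barcodes with 300.0 to 4000.0 detected genes, at most 20000.0 UMIs and under 50% mitochondrial UMIs were kept. No doublet caller was run. A cell was gated when it held at least 3 markers of a type and 2 times those of the next type, a marker counting where its level in the cell was at least 3 times the median of the 9 library levels and at least the level of the cell's own library. Principal cells needed 3 principal markers, each at or above the mean level of the libraries of the same segment, and at most 1 marker of other types. Types with under 10 cells in a library were left out there. Cells were also clustered (leidenalg 0.10.2, Leiden resolution 1, 3000.0 variable genes, 50 components, 39 clusters) without the 10 genes. The listed genes of the same systems and the globin genes were left out as well, and each gene was centred within its library. To compare shares, cells were thinned to 1000.0 UMIs and shallower cells left out.

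UMIs were summed per library and type and tested with edgeR 4.0.16 (quasi-likelihood, TMM, filterByExpr) under R 4.3.3, with Benjamini-Hochberg adjustment over all genes and a call at an adjusted p under 0.05 and a log2 difference of at least 1. Segments were fitted with the pool as a block, ages with the segment and cell types with the library. The fit of cell types thus counts the segments of a pool as separate samples. For cell types the difference is that of the highest type against the mean of the others. Pool numbers pair the libraries because each pool gave all its segments from the same mice. Deviations from the segment means of 18538 genes correlated by 0.145 to 0.734 over 9 same-pool pairs and by -0.665 to 0.527 between pools. Between the 2 P56 pools the range was 0.0204 to 0.527, and within them 0.145 to 0.614. Deviations from a mean of 3 libraries add to 0, and P42 differs from P56 in age as well. These values therefore do not test the pairing. Replicates are pools of mice, and P42 has 1. Counts were simulated from a single profile with a fixed dispersion and no pool effect, and changed genes were drawn from those with more counts. False calls from differences between pools were therefore not covered. On these simulated counts, 4-fold changes were recovered at 100% in all 4 fits tested. Changes of 2-fold were recovered at 62% in the segments fit of the whole tissue (18267 genes, 7 unchanged genes called), 43% in that of endothelial cells (5249 genes, 6 called), 41% in the age fit (18323 genes, 3 called) and 34% between cell types (8790.0 genes, 0 called).

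The members and lists were chosen with earlier results of these data known. The members are described without a test. From the list of the same systems the called genes were named, at most the 5 with the greatest fitted difference in a comparison, along with other ligands and receptors of a system that the text describes. Genes most like a member are the 3 with the highest correlation, given where r is at least 0.8. Exceptions to this rule, named after their values were seen, are the leading genes of clusters. Npff, Npy5r and Qrfpr were not analysed here. Intervals (95%) and floors (3 UMIs or 3 cells) cover counting error only. Alternatives were DESeq2 1.42.0, no filter on low counts, scaling by totals alone, no block, another age model, each pool left out, all barcodes, clusters or a stricter gate in place of the gate, and, chosen after seeing the data, leaving out the P42 cauda, levels by library in cluster classes, leaving out each library from the levels by cluster, and the erythroid-gated cells limited to the erythroid cluster.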

Additional observations from a re-analysis of the deposited data

Results flagged for a closer look

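Over the whole tissue and each gated type with values in all 9 libraries, and counting a segment where every library held more than 3 UMIs of the gene, there were 10 cases in which both P56 pools lay above the P42 pool in 1 segment and below it in another. Such a difference in direction was not tested, and it rests on 1 pool at P42. The share of such cases over all genes was not worked out. The count is therefore not read as a result about the 10 genes. With cluster classes in place of the gate, 4 of the 8 cases within types kept segments of opposite direction (Qrfp and Adm in basal cells, Adm in clear and narrow cells and Ramp3 in principal cells), and Adm in principal cells and in macrophages and monocytes, Ramp3 in basal cells and Edn3 in myoid cells did not. The value given is the difference between the segments' log2 ratios of mean P56 to P42 level.

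Over the whole tissue, Qrfp went from 2.11 CPM to 3.32 and 2.77 CPM in the cauda and from 8.07 CPM to 6.09 and 2.95 CPM in the corpus, a difference of 1.37. Ntsr2 went from 101 CPM to 240.0 and 262 CPM in the caput and from 0.791 CPM to 0.587 and 0.318 CPM in the cauda, a difference of 2.11. The cauda values rest on 49 UMIs over the 3 libraries together, so their order is open to counting error. Within basal cells, Qrfp was higher at P56 in the caput and lower in the cauda, by a difference of 0.51. The P42 cauda held just 58 gated basal cells. Adm in basal cells was higher at P56 in the corpus and cauda and lower in the caput, at 155 CPM at P42 and 117 and 92.9 CPM at P56, and the difference was 1.39. With cluster classes in place of the gate, Adm in basal cells was higher at P56 in the corpus alone and lower in the caput and cauda. In principal cells Adm was 10.4 CPM at P42 and 17.3 and 18.1 CPM at P56 in the cauda, and 8.79 CPM at P42 and 4.30 and 3.01 CPM at P56 in the caput, a difference of 2.04. Adm also differed in direction by 3.26 in clear and narrow cells, where it was 12.5 CPM at P42 and 26.8 and 42.7 CPM at P56 in the cauda and 17.6 CPM at P42 and 5.02 and 5.24 CPM at P56 in the caput, and by 0.93 in macrophages and monocytes. Edn3 in myoid cells was higher at P56 in the cauda and lower in the caput and corpus, a difference of 1.35. Ramp3 was higher at P56 in the caput and cauda and lower in the corpus, with a difference of 0.75 in principal cells and 0.51 in basal cells.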

How the results depend on the processing

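The counts of listed genes called were recomputed under each alternative. The block stands for the pairing of segments by pool. Without the replicate block the whole-tissue segment count was 7 in place of 11 and the endothelial count 2 in place of 4, and the block moved no other count by over 1.5 times. With 1 pool left out the counts ranged from 3 (without the first P56 pool) to 19 (without P42) over the whole tissue, where Npy2r and Ntsr1 stayed called in 9 of 9 alternatives, from 1 (without the first P56 pool) to 5 in endothelial cells and from 0 (without the second P56 pool) to 8 (without P42) in fibroblasts, where the main count was 2. Without the P42 cauda, chosen after seeing the data, the fibroblast count was 8. Without a filter on low counts it was 8 in fibroblasts and 25 in place of 13 between cell types, where the stricter gate gave 20. Between ages the count was 8, with a range from 0 (without either P56 pool) to 6 (without the P42 cauda) over the 3 fits that left out libraries and from 8 to 11 over the 5 other alternatives. An age fit without the P42 pool could not be made. All-gene age calls were 3104, and 4993 with scaling by totals alone. With clusters in place of the gate, the segment difference of Edn3 in basal cells turned from 1.04 to -0.041 and that of Ppy in myoid cells against other types from 1.03 to -0.12. The causes were not tested. The highest type was the same for 7 of the 10 genes with clusters and for 8 with the stricter gate.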
